A study of Bos taurus with 14 samples.

Results

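In 5 of 14 libraries of cattle back muscle, MYH4, the gene of the fast IIb myosin heavy chain, was read at 280 to 757 CPM (the deposited count of a gene divided by the total of its column and multiplied by 1000000), and in 8 it was read at 20.3 to 30.6 CPM. The libraries were chosen by this value alone: a library with at least 200 CPM was called MYH4-high, one with less than 50 CPM was called MYH4-low, and the 1 library between was left out, so that 13 of 14 were compared. The libraries nearest to the thresholds were restricted 2 with 280 CPM (high), control 1 with 102 CPM (left out) and control 5 with 30.6 CPM (low). Because MYH4 levels selected the classes, these values are a description and carry no test, and the classes are not a treatment of the study. MYH3, the embryonic heavy chain gene, was named beside MYH4 with its values known and is described in the same way.

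Each library came from 1 female animal at postnatal day 485, from its longissimus dorsi, a long back muscle. Dams of the 7 control animals were fed 100% of their nutrient requirement from gestational day 158 to birth, and dams of the 7 restricted animals were fed less, given as 70% in the series design and as 50% in the treatment protocol. Offspring of both groups were managed alike after birth, and the ad libitum diet began on postnatal day 301. For breed, genotype and sire the labels give nothing. The high class held control 2, control 4, restricted 1, restricted 2 and restricted 4. The low class held 4 control and 4 restricted animals, so diet was kept as a covariate in every fit reported below unless stated. The fits on only the titles ending in A, or only those ending in B, had no covariate.

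A sarcomeric myosin heavy chain is the motor protein of the thick filament, and a muscle fibre is typed by the one it makes: MYH7 in slow type I fibres, MYH2 in fast oxidative IIa fibres, MYH1 in fast IIx fibres and MYH4 in IIb fibres, the fastest and most glycolytic type of many small mammals. In adult cattle IIx is the usual fastest fibre of the back, and IIb myosin is known as scarce and as present in some animals and muscles only. MYH3 (embryonic) and MYH8 (perinatal) precede the adult chains before and around birth and return in regenerating fibres. The fast and developmental genes lie in 1 cluster and share long stretches of near-identical sequence, so reads can be split among them, and how reads with several alignments were counted is not known here; their counts are therefore uncertain.

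All 14 libraries read as skeletal muscle, with ACTA1 (skeletal alpha actin) at 37000 to 54600 CPM and CKM (muscle creatine kinase) at 12800 to 17300 CPM. Total counts ranged from 13631018 to 17325779 per library and overlapped between classes, with means of 15991672 ± 683172 in MYH4-high (SD, n = 5) and 15841644 ± 1167278 in MYH4-low (SD, n = 8; two-sided exact permutation p = 0.81, adjusted 0.851 over 2 such tests). Restricted 7, control 7 and restricted 4 stood apart for interferon-response genes, with summed levels of 692, 394 and 315 CPM against 125 to 195 CPM in the others. Restricted 7 also held 1800 CPM of adipocyte markers and 101 CPM of 10 liver genes, ALB among them with 781 reads, and restricted 4 held 18.5 CPM of the liver genes against at most 5.93 CPM in the remaining 12. The titles carry letters whose meaning is not given. Titles ending in B made up 4 of the 5 MYH4-high and 1 of the 8 MYH4-low libraries, and titles starting with R made up 2 of the 5 and 0 of the 8, so class and last letter can be told apart only through restricted 4 (high, A) and restricted 7 (low, B).

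In the MYH4-high class, MYH4 was read at 757 CPM in restricted 1, 746 in control 2, 714 in restricted 4, 330 in control 4 and 280 in restricted 2. The MYH4-low libraries held 30.6 CPM in control 5, 24.3 in restricted 7, 23.9 in control 6, 23.7 in restricted 3, 22.7 in restricted 5, 21.7 in control 3, 21.6 in control 7 and 20.3 in restricted 6. The class means were 566 ± 239 CPM (SD, n = 5) and 23.6 ± 3.13 CPM (SD, n = 8). Control 4 and restricted 2 thus lay well below the other 3 high libraries, while the low libraries lay close together. The values rest on 4557 to 12088 reads per library in the high class and on 299 to 421 in the low class.

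On a scale that corrects for gene length (TPM, counts per base of gene length brought to a common total), MYH4 made up 1% of all heavy chain transcripts in control 2, 0.907% in restricted 1, 0.864% in restricted 4, 0.412% in control 4 and 0.355% in restricted 2, beside 0.12% in control 1 and 0.0269 to 0.0368% in the low class. MYH4 was thus a minor chain in every library. MYH1 took 61.1 to 75.1% of heavy chain TPM over the 14 libraries, MYH2 12.9 to 26% and MYH7 9.85 to 17.9%. Set against the reads of the 2 main fast chains, the low libraries held 0.291 to 0.414 MYH4 counts per 1000 MYH1 and MYH2 counts, a narrow range, control 1 held 1.43 and the high libraries 3.92 to 11.1. Whether the low level is MYH4 message or reads of its near-identical neighbours was not tested.

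**Figure D1:**
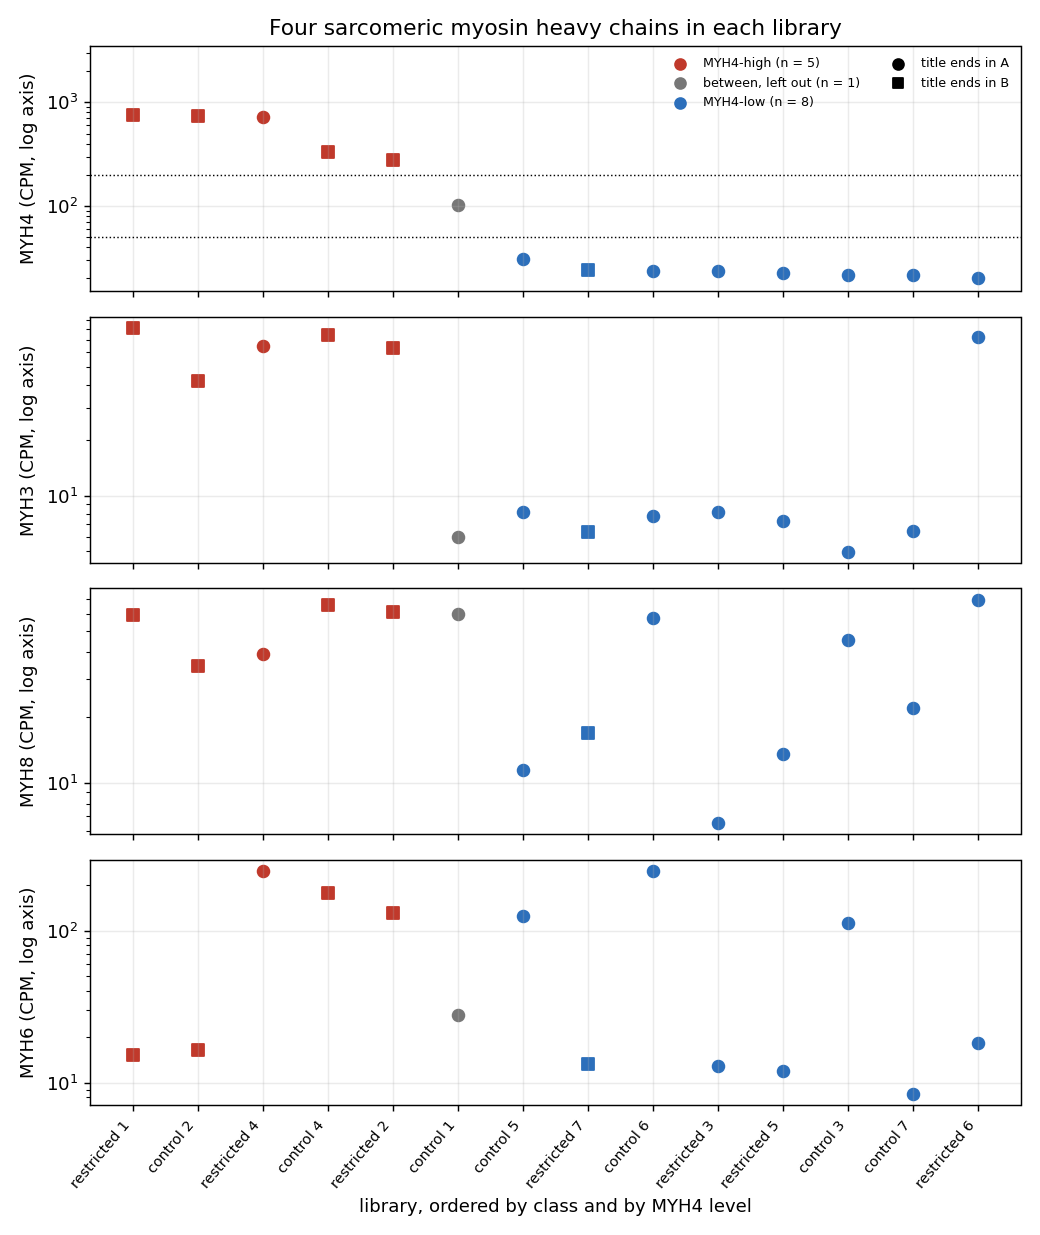
MYH4, MYH3, MYH8 and MYH6 levels (CPM, log axes) in each of the 14 libraries, ordered by class and MYH4 level, 1 point per library; dotted lines mark the 200 and 50 CPM thresholds, and squares mark titles ending in B. MYH3 is at 42 to 80.6 CPM in all 5 MYH4-high libraries and in restricted 6, and at 4.98 to 8.14 CPM elsewhere, while MYH8 and MYH6 overlap between the classes.

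MYH3 stood on the same side as MYH4 in 12 of the 13 libraries. It was read at 80.6 CPM in restricted 1, 74.6 in control 4, 64.8 in restricted 4, 63.4 in restricted 2 and 42 in control 2. In the low class it was read at 4.98 CPM in control 3, 8.14 in control 5, 7.75 in control 6, 6.43 in control 7, 8.11 in restricted 3, 7.28 in restricted 5 and 6.35 in restricted 7, but at 72.3 CPM in restricted 6, which had the lowest MYH4 of all. Control 1, between the MYH4 thresholds, held 5.98 CPM of MYH3, as the low libraries did. Each MYH4-high library thus had MYH3 in its upper range, and 1 library had MYH3 there with MYH4 in its lower range.

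Levels of MYH3 fell into 2 ranges with none between 8.14 and 42 CPM, and within the high class they did not follow the order of MYH4: control 2, the second highest for MYH4, was the lowest for MYH3. The fitted ratio of MYH4-high to MYH4-low was 4.65 (log2 2.22, SE 0.51), and without restricted 6 the log2 value was 3.15. By title letter the pattern was the same on both sides: among titles ending in B the 4 high libraries held 42 to 80.6 CPM against 6.35 in restricted 7, and among titles ending in A restricted 4 held 64.8 CPM against 4.98 to 8.14 in 6 of the 7 low libraries, restricted 6 being the exception. As a share of heavy chain TPM, MYH3 was 0.0542 to 0.0927% in the high class, 0.093% in restricted 6 and 0.00685 to 0.00941% in the other low libraries. In tissue RNA, fewer cells of a type and less RNA per cell cannot be told apart.

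MYH8 was read at 65.9 CPM in control 4, 61.2 in restricted 2, 59.1 in restricted 1, 39.3 in restricted 4 and 34.4 in control 2. The low class ran from 6.52 CPM in restricted 3 to 69.9 in restricted 6, with a median of 19.5 CPM, and control 1 held 60.2. Restricted 6, control 6 (57.6 CPM) and control 3 (45.4 CPM) reached the level of the high class, so the groups overlapped. The ratio was 1.73 (95% interval 0.861 to 3.47; adjusted p = 0.857, quasi-likelihood test of edgeR, Benjamini-Hochberg adjustment over all genes).

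MYH6, the alpha cardiac chain, was either high or low in both classes. It was read at 247 CPM in restricted 4, 177 in control 4 and 131 in restricted 2 but at 16.4 in control 2 and 15.3 in restricted 1, and in the low class at 245 CPM in control 6, 124 in control 5 and 111 in control 3 but at 8.42 to 18.3 in the other 5. High and low values thus occurred in each class. The ratio of 3.8 (95% interval 0.91 to 15.9; adjusted p = 0.82 by the same test) rests on the diet covariate, since all 3 high values in the low class belong to control animals; without the covariate the log2 difference was 0.80 in place of 1.93.

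The 3 abundant chains overlapped between classes. MYH1 was read at 57400 ± 3810 CPM in MYH4-high (SD, n = 5) and 54900 ± 5000 in MYH4-low (SD, n = 8), a ratio of 1.03 (95% interval 0.88 to 1.2; adjusted p = 0.988, edgeR quasi-likelihood test). MYH2 was read at 13300 ± 2410 and 15700 ± 3530 CPM, a ratio of 0.814 (95% interval 0.649 to 1.02; adjusted p = 0.823, edgeR). MYH7 was read at 10500 ± 2880 and 11300 ± 2120 CPM, a ratio of 0.914 (95% interval 0.711 to 1.17; adjusted p = 0.949, edgeR). Each interval holds 1, and no difference was detectable at this spread.

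Of the remaining chains, MYH7B, the slow-tonic chain, was read at 128 ± 42.4 and 128 ± 29.5 CPM, and MYH13, the superfast extraocular chain, at 3.18 ± 1 and 2.59 ± 0.811 CPM; neither passed the test. MYH15 was too low to test, with a highest level of 1.74 CPM in control 2, and MYH16 was not analysed here. The summed heavy chains apart from MYH4 and MYH3 took 8.15 ± 0.365% of all counts in MYH4-high (SD, n = 5) and 8.21 ± 0.679% in MYH4-low (SD, n = 8), a difference smaller than the spread between libraries (two-sided exact permutation p = 0.851, adjusted 0.851; the smallest p these 1287 assignments allow is 0.000777).

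Across the transcriptome, 0 of 12411 genes other than MYH4 (0%) passed an adjusted p of 0.05 in edgeR's quasi-likelihood test, with a smallest adjusted p of 0.128. At an unadjusted p under 0.05, 390 genes (3.14%) were on the side of higher levels in MYH4-high and 368 (2.97%) on the side of lower levels, 758 in all where 620.6 would be below 0.05 if no gene differed. On the same 13 libraries DESeq2 passed 9 genes and limma voom 1. The count was 0 in most fits that left out 1 library. It was 2 without control 2 (BMP5 and the unnamed ENSBTAG00000023487) and 1 without control 4 (the unnamed ENSBTAG00000007820). It was also 1 without restricted 4 (SPP1) and 1 without restricted 6 (MYH3). For BMP5, ENSBTAG00000007820, SPP1 and MYH3, the library left out was the 1 that stood against the pattern of the gene. The 95% interval lay wholly between log2 differences of -1 and 1 for 92.2% of genes, and the median standard error was 0.13, so smaller differences could go unseen. The fit of a class by diet interaction passed 0 genes, with 889 at an unadjusted p under 0.05.

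In CPM, all 5 MYH4-high libraries lay above all 8 MYH4-low libraries for 15 of the 12411 genes (0.121%) and below them for 3 (0.0242%). After scaling by the trimmed mean of M-values these counts were 14 and 9, with 5 and 3 genes shared by both scales. The scaling here was computed over all 14 libraries, whereas the tests computed it over the 13 compared. The 5 were PI3, GRM4, TUBB6 (a tubulin), CBFA2T3 (a transcriptional corepressor) and E2F5 (a cell cycle transcription factor), and the 3 were GRSF1, COPRS and the unnamed ENSBTAG00000055026. TUBB6 had a ratio of 1.4, CBFA2T3 of 1.49 and E2F5 of 1.51. None of the genes set apart in CPM was a member of any of the fibre, developmental or cell type lists described below.

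**Figure D2:**
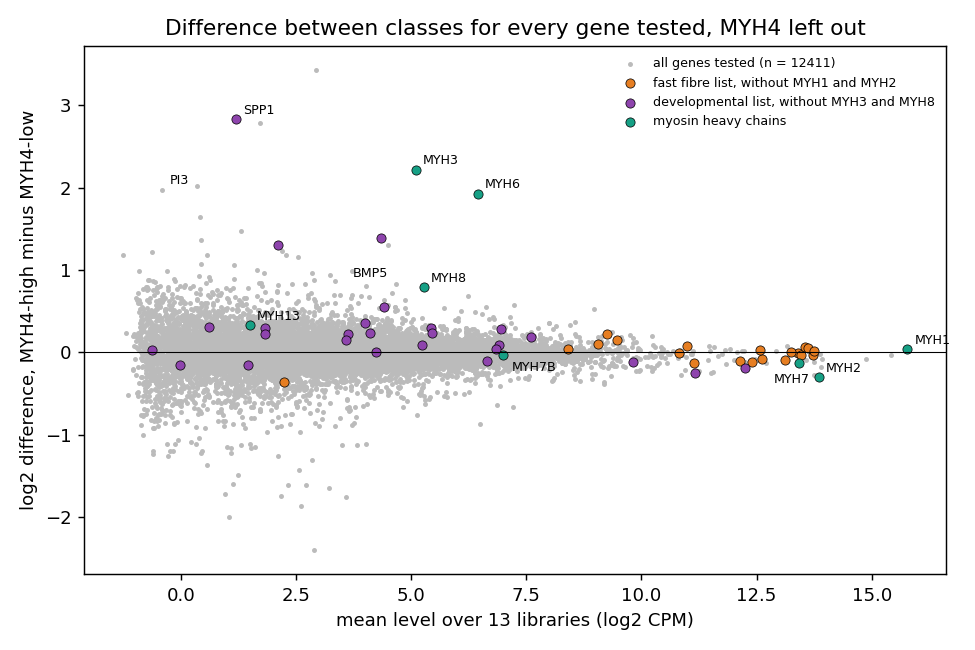
Fitted log2 difference between MYH4-high and MYH4-low (vertical axis) against mean level over the 13 libraries (horizontal axis, log2 CPM) for 12411 genes, 1 point per gene. Fast fibre genes lie between -0.35 and 0.22 near the zero line, while MYH3, MYH6 and SPP1 lie above the cloud at differences of 1.93 to 2.83.

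No fast fibre gene followed MYH4 past the test. None of the 22 tested passed at an adjusted or an unadjusted p of 0.05; 11 differences were positive and 11 negative, with a median log2 difference of 0 beside 0.002 over all genes tested. Among the contractile members, TNNC2 (fast troponin C) was read at 12400 ± 1050 CPM in MYH4-high (SD, n = 5) and 11700 ± 1320 in MYH4-low (SD, n = 8), with a ratio of 1.05 (95% interval 0.882 to 1.24). MYLPF (fast regulatory light chain) had a ratio of 0.977 (95% interval 0.826 to 1.15). ACTN3, the alpha actinin of fast fibre Z-discs, had a ratio of 1.02 (95% interval 0.884 to 1.17). These 3 intervals are narrow and hold 1, no difference.

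Fast genes of calcium handling and metabolism overlapped between classes too. ATP2A1, the fast sarcoplasmic reticulum calcium pump, was read at 11817 to 14992 CPM in the high class and 11516 to 12826 in the low class. PVALB, the calcium buffer parvalbumin of fast fibres in small mammals, was read at only 1.83 to 6.32 and 1.92 to 8.72 CPM, with a ratio of 0.783 (95% interval 0.502 to 1.22). AMPD1 (muscle AMP deaminase) had the most positive difference of the list, 0.22, and there restricted 6 stood alone at 167 CPM against 551 to 724 in the other 13. Of the glycolysis and glycogen list, 0 of 35 passed; ALDOA (aldolase A) was at 29400 ± 2860 and 30500 ± 2200 CPM, GAPDH at 15300 ± 1030 and 15800 ± 1890, and 2 (5.71%, beside 6.11% of all genes) had an unadjusted p under 0.05, LDHB and PPP1R3C.

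None of the 20 slow fibre genes passed either, though 17 of 20 had negative differences, with a median of -0.20. MYL2, the slow regulatory light chain, had a ratio of 0.947 (95% interval 0.741 to 1.21) and SLN, sarcolipin, a peptide inhibitor of the calcium pump, one of 0.849 (95% interval 0.704 to 1.02). Troponins TNNT1, TNNI1 and TNNC1 had log2 differences of -0.21, -0.22 and -0.10. In each of these the classes overlapped: TNNI1, for example, ran from 524 to 1227 CPM in MYH4-high and from 821 to 1286 in MYH4-low. The lean is a description whose size moves with the libraries. Among titles ending in B, with only 1 low library, the median was 0.01 (11 positive, 9 negative). Among titles ending in A, with only 1 high library, it was -0.41 (2 positive, 18 negative). With the last title letter as a second covariate it was -0.248 (2 positive, 18 negative). Titles starting with Y gave -0.179 (4 positive, 16 negative). Leaving out 1 library gave -0.305 without control 4, -0.302 without restricted 1, -0.132 without control 6, -0.115 without restricted 6, -0.102 without restricted 4 and -0.093 without control 2. Of 36 TCA cycle and respiratory chain genes, 0 had an unadjusted p under 0.05. Their differences were 5 positive and 31 negative, with a median of -0.04. That median was -0.145 without restricted 1 and -0.008 (18 positive, 18 negative) without restricted 2. Among titles starting with Y it was -0.138 (0 positive, 36 negative), and under library size scaling alone -0.013 (16 positive, 20 negative).

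Of the regulators known to set fibre type, 0 of 36 passed the threshold, with 14 positive and 22 negative, and a median of -0.02. MAF and MAFA, transcription factors that activate Myh4 in mouse muscle, were read at 46.6 ± 7.16 and 44.4 ± 6.94 CPM (MAF) and at 21.9 ± 8.62 and 17.7 ± 5.27 CPM (MAFA), high class first. SOX6, a repressor of slow genes, had a ratio of 0.993 (95% interval 0.846 to 1.17). NFIX, which drives the switch from embryonic to foetal muscle genes, was at 357 ± 16.8 and 361 ± 24.3 CPM, and MEF2C, a muscle transcription factor, at 173 ± 20.7 and 178 ± 25.3. MSTN (myostatin) was at 22.6 ± 5.41 and 25.5 ± 7.69 CPM.

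Among regulators 2, or 5.56% of 36, had an unadjusted p under 0.05, a share near the 6.11% of all genes; their values are given as a description. PROX1, a homeobox factor that maintains slow fibres, was read at 2.83, 2.32, 1.82, 1.72 and 1.64 CPM in control 4, control 2, restricted 1, restricted 2 and restricted 4, and at 2.12 to 4.15 CPM in the low class. Its ratio was 0.685 (95% interval 0.521 to 0.9; adjusted p = 0.776, edgeR quasi-likelihood test), and the groups overlapped. BCL6, a transcriptional repressor, was read at 103 to 274 CPM in the high class and 82.9 to 152 CPM in the low class, with a ratio of 1.35 (adjusted p = 0.799, edgeR quasi-likelihood test). Neither passed over all genes.

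Of 29 developmental and regenerating fibre genes tested, 20.7% were below an unadjusted p of 0.05 beside 6.11% of all genes, and 0 passed after adjustment. That share counts MYH3, and the tendon list had 20% of 5 tested. Of the 29, 22 differences were positive and 7 negative, with a median of 0.22. With the last title letter as a second covariate the median was 0.038 (16 positive, 13 negative). Among titles ending in A it was -0.134 (11 positive, 20 negative), and without control 4 it was 0.12 (17 positive, 12 negative). Among titles ending in B, where restricted 7 was the only low library, it was 0.134 (23 positive, 8 negative). Titles starting with Y gave 0.182 (20 positive, 10 negative). The negative median came from the titles ending in A, where restricted 4 was the only high library against 7 low ones. That fit had no diet covariate and its own filter, so the members it tested were not the same set. On the higher side were MYH3, ACTC1, MYOD1, DLK1 and SPP1, and on the lower side KLHL41. No test of the list was made, since MYH3, which is a member, was named with its values known and the list was drawn up with earlier results of these data known.

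The members that led this list did not mark the same libraries. ACTC1, cardiac alpha actin, which foetal skeletal muscle also makes, was read at 63.1 CPM in restricted 1, 49.1 in control 4, 26.4 in restricted 2, 19.8 in restricted 4 and 4.77 in control 2, against 4.41 to 13.58 in 7 low libraries and 38 in control 3. DLK1, a Notch-pathway ligand of embryonic and regenerating muscle, was read at 14.7 CPM in restricted 2, 8.48 in control 4, 4.63 in restricted 1, 4.38 in control 2 and 2.04 in restricted 4, against 0.95 to 5.43 in the low class. MYOD1, the myogenic determination factor, was read at 39.6 CPM in restricted 2, 37.8 in control 4, 24.5 in control 2, 17.2 in restricted 1 and 14.8 in restricted 4, against 13.3 to 25.4 in the low class. Control 4 was above every low library in all 3 genes and restricted 2 in DLK1 and MYOD1, and these were the 2 high libraries with the least MYH4. Control 2 and restricted 4 lay within the range of the low class for all 3, and restricted 1 for DLK1 and MYOD1.

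Other members of the developmental programme showed smaller differences. MYOG (myogenin), a factor of myoblast differentiation, was at 49.1 ± 8.52 and 39.1 ± 7.93 CPM, a ratio of 1.23 (95% interval 0.96 to 1.57). NCAM1, an adhesion molecule of regenerating and denervated fibres, was at 9.59 to 25 CPM in the high class and 7.73 to 24 in the low class. KLHL41, a sarcomere-stabilising kelch protein, was at 2090 ± 127 and 2440 ± 253 CPM, a ratio of 0.841 (95% interval 0.728 to 0.972), and DES (desmin) at 4530 ± 268 and 5030 ± 1420. The embryonic light chain MYL4 was at no more than 0.88 CPM in any library and too low to test, as were the fusion genes MYMK, at no more than 0.79 CPM, and MYMX, at no more than 0.18 CPM.

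Satellite cell genes gave 0 of 19 past the threshold and a median of 0.14 (0.032 without control 4, -0.076 among titles ending in A), with PAX7, which marks these muscle stem cells, at 0.941 ± 0.468 and 1.01 ± 0.218 CPM. Of 23 neuromuscular junction and denervation genes 0 passed at either p, with a median of 0.05, and PRKAR1A, a regulatory subunit of protein kinase A, was at 81.1 ± 13.9 and 85.1 ± 7.48 CPM. CHRNA1, the receptor subunit that denervated fibres raise, was read at 102 to 136 CPM in MYH4-high and at 58.5 to 102 CPM in 7 of the 8 MYH4-low libraries, with restricted 6 at 165. The foetal receptor subunit CHRNG was at 0.38 to 1.11 CPM in the high class and 0.19 to 1.34 in the low class.

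Restricted 6, the library with MYH3 but no more than 20.3 CPM of MYH4, differed from the other low libraries in several genes. Besides the highest MYH8 (69.9 CPM) and CHRNA1 (165 CPM) of all 14, it had the highest CDKN1A, a cell cycle inhibitor, at 39.9 CPM against at most 19.4 elsewhere, the highest DES, at 8080 CPM against at most 5912, and the lowest MYOG, at 22 CPM against at least 35.2. SDC4 (syndecan 4) stood at 36.7 CPM against at most 15.8 in the others. These genes were picked out after their values were seen.

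**Figure D3:**
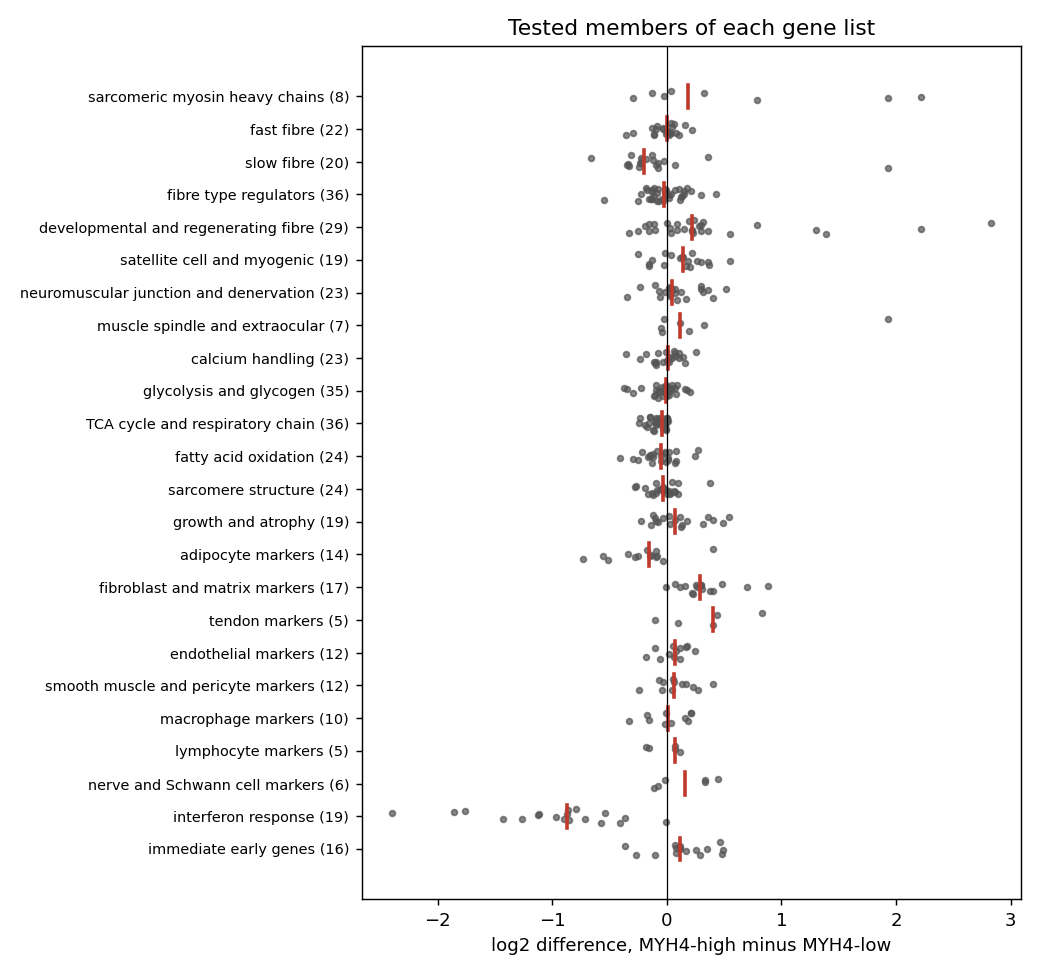
Fitted log2 difference, MYH4-high minus MYH4-low, of each tested member (grey points) of 24 gene lists with its median (red bar); the number of members tested is in brackets. Fast fibre members centre on 0, the developmental list has a median of 0.22 with members up to 2.83, and interferon-response members are all negative.

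Markers of other cells differed with the libraries that stood apart. All 19 interferon-response genes tested had negative differences, with a median of -0.87 and a summed level of 125 to 315 CPM in MYH4-high and 127 to 692 in MYH4-low; without restricted 7 the median was 0.104 (14 positive, 4 negative), without control 7 it was -0.524, without restricted 4 it was -1.704, and without all 3 it was -0.065. Adipocyte markers had a median of -0.16, with summed levels of 305 to 778 CPM against 175 to 1800. Without restricted 7 the median was 0.086, and leaving out any other 1 library it lay between -0.319 (without control 6) and -0.053 (without restricted 4). With the last title letter as a second covariate it was -0.846 (0 positive, 14 negative). Among titles ending in A, which do not include restricted 7, it was -0.769 (1 positive, 14 negative), with restricted 4 as the only high library. Fibroblast and matrix markers had 16 of 17 positive differences and a median of 0.29, 0 past the threshold, with summed levels of 1170 to 2070 CPM in the high class and 837 to 2110 in the low class. With the last title letter as a second covariate this median was 0.002 (9 positive, 8 negative), among titles starting with Y it was 0.04, without control 2 it was 0.09 and without control 5 it was 0.187. Among titles ending in B, where restricted 7 was the only low library, it was -0.261 (3 positive, 14 negative). Among markers of endothelium, smooth muscle, macrophages, lymphocytes and nerve, 0 passed the threshold, and list medians lay between 0.02 and 0.16. The part of these cells in the values of MYH3, SPP1 or the other developmental genes was not tested.

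In the matrix list the libraries that stood apart mattered for single genes. COL1A1 and COL1A2, the chains of type I collagen, were read at 103 ± 27.8 and 132 ± 36.8 CPM in MYH4-high (SD, n = 5) against 72.1 and 97.5 CPM on average in MYH4-low (n = 8), with ratios of 1.4 and 1.32 and adjusted p of 0.87 and 0.879 (edgeR quasi-likelihood test). Without the 3 libraries highest for interferon genes, which left 4 high and 6 low, both passed, with log2 differences of 1.05 and 0.89 and adjusted p of 0.00247 and 0.025 in the same test. That fit was chosen after the data were seen, and the median of the matrix list in it was 0.45.

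Apart from SPP1, the 10 named genes with the smallest p, 5 on each side, stood on none of the lists. On the higher side these were PI3 (elafin, a protease inhibitor), CTSA (the lysosomal protease cathepsin A), GRM4 (a glutamate receptor), BMP5 (a growth factor of the TGF-beta family) and SPP1 (osteopontin, a matrix cytokine of regenerating muscle), with ratios of 3.92, 1.55, 1.66, 1.78 and 7.09. Their adjusted p ran from 0.299 to 0.392 in edgeR's quasi-likelihood test. PI3, CTSA, GRM4 and BMP5 passed in DESeq2, whose adjusted p for them ran from 0.0074 to 0.0161.

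BMP5 was read at 52.4 CPM in restricted 1, 44.6 in restricted 4, 35.8 in control 4, 26.7 in restricted 2 and 20.6 in control 2. In the low class it lay between 16.4 and 20.9 CPM, so 4 of the 5 high libraries were above all low ones. Control 2, with the second highest MYH4, was in the low range, and without it the log2 difference was 1 in place of 0.83. Control 2 was the 1 high library against the pattern and the values were known, so this is a description.

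SPP1 was read at 7.44 CPM in restricted 2, 7.35 in control 2, 6.57 in restricted 1, 2.71 in control 4 and 0.13 in restricted 4, against 0.22 to 1.56 in the low class. Thus the 4 high libraries whose titles end in B were above all low libraries and the 1 ending in A was below all of them. Restricted 7, the low library ending in B, held 0.92 CPM. With the last letter as a second covariate the log2 difference was 1.08 in place of 2.83, and among titles ending in A it was -2.17.

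PI3 was read at 1.94, 1.84, 1.18, 1.17 and 0.90 CPM in restricted 1, restricted 4, control 4, restricted 2 and control 2 and at 0.07 to 0.74 in the low class, and GRM4 at 3.88 to 6.42 against 2.08 to 3.42, so neither overlapped. PI3 rested on few reads, 11.9 per library on average. CTSA was read at 20.9 to 30.4 CPM against 12.9 to 24.3, with restricted 7 at 24.3 and restricted 1 at 20.9 overlapping.

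On the lower side were PPM1K (the phosphatase that activates branched-chain amino acid breakdown in mitochondria), GRSF1 (a mitochondrial RNA-binding protein), COPRS (a histone-binding partner of the methyltransferase PRMT5), ISOC1 and EXOC6 (a subunit of the vesicle-tethering exocyst). Their ratios were 0.711, 0.803, 0.651, 0.726 and 0.731, with adjusted p of 0.392 to 0.522 in edgeR's quasi-likelihood test. GRSF1 was read at 57.4 to 69.3 CPM in the high class and 70 to 89.3 in the low class, and COPRS at 3.28 to 4.95 against 5.14 to 7.32, without overlap. PPM1K was read at 43.1 to 58.1 CPM against 53.3 to 82.4, with restricted 2 and control 3 overlapping. PPM1K, GRSF1 and COPRS passed in DESeq2.

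**Figure D4:**
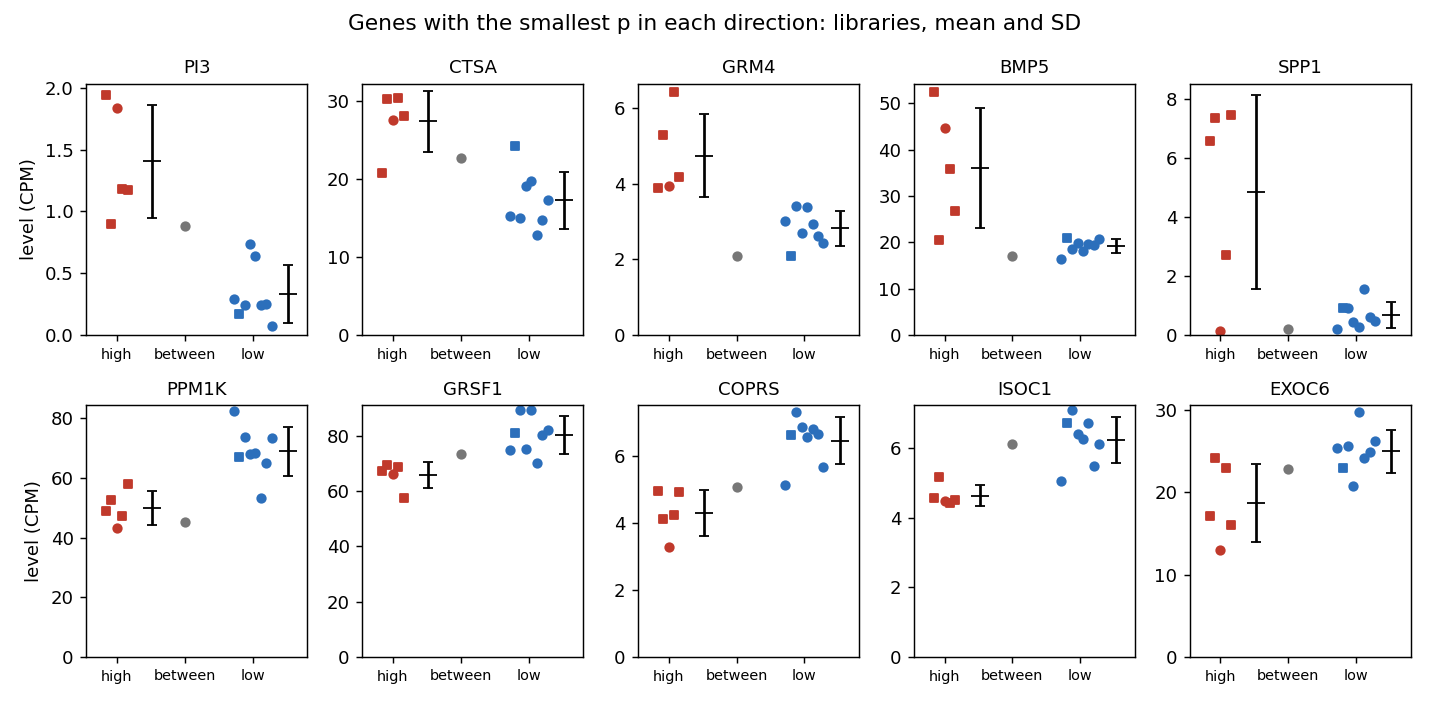
Levels (CPM, axes from 0) of the 5 named genes with the smallest p on each side, 1 point per library (squares for titles ending in B), with mean and SD per class (black; n = 5 and 8) and control 1 in grey. PI3, GRM4, GRSF1 and COPRS do not overlap between classes, whereas SPP1 has 1 MYH4-high library, restricted 4, at the bottom of its panel.

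The smallest p of all belonged to ENSBTAG00000007820, for which the table holds no symbol. It was read at 28.9 CPM in restricted 4, 24.95 in restricted 2, 24.3 in control 2, 8.52 in restricted 1 and 1.06 in control 4, against 0.88 to 2.14 CPM in the low class and 1.7 in control 1. Its log2 difference was 3.43 (SE 0.53; adjusted p = 0.128, edgeR quasi-likelihood test). The gene passed in DESeq2, with an adjusted p of 7.89e-05. Thus 4 of the 5 MYH4-high libraries were above every low one and control 4 was among the low ones. Without control 4 the log2 difference was 3.85. Control 4 was the 1 high library against the pattern and the values were known, so this is a description.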

How the data were processed

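Transcript levels were measured by RNA sequencing of total RNA from the longissimus dorsi of 14 cattle. The authors deposited raw counts of reads per gene. Per the submitters' processing notes, FastQC, HISAT2, featureCounts and edgeR were used with the build ARS-UCD1.2; their versions and the annotation stand as not given in the sources used here. Nor is the use of strand or of multi-mapped reads stated, so reads of a gene and of an overlapping or antisense partner cannot be told apart. The members and gene lists were chosen with earlier results of these data known.

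The table held 18078 genes with symbols and lengths of its own; 2578 rows had no symbol. No coordinates or sequences are given, since the reference table (assembly ARS-UCD2.0) held 0 of these identifiers. CPM in the text are counts over the column sum. The fit used edgeR 4.0.16 in R 4.3.3: filterByExpr on the 2 classes (minimum count 10, minimum total 15) kept 12411 genes without MYH4, TMM (trimmed mean of M-values) scaled the libraries, and class was tested beside diet with the quasi-likelihood F test, adjusted by Benjamini-Hochberg at 0.05 (10 residual degrees of freedom). Ratios and log2 differences are of this fit, high over low; their intervals cover 95%. TPM used the deposited gene lengths. DESeq2 1.42.0 and limma 3.58.1 were alternatives, beside other scalings, filters, covariates, subsets by title letter and leaving out each library. The subsets by last title letter were fitted without a covariate. The steps were tested on simulated data. No 2 libraries were copies (smallest chi-square per degree of freedom 12.8). Each library was taken as 1 animal, since the labels state 7 animals a group.

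Genes named by rule were the heavy chains, the 5 symbol-bearing genes of smallest p on each side, list members past the threshold (0), the 2 most abundant tested members of 6 lists, and MAF, MAFA, SOX6, PROX1, MYOG, MYOD1, PAX7, MSTN, PVALB, ACTN3 and MYLPF. All others, among them ENSBTAG00000007820, COL1A1, the genes that did not overlap between classes and the remaining list members, were named after their values were seen. A few genes of the rule are not reported here.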

Additional observations from a re-analysis of the deposited data

Results flagged for a closer look

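In 7 of 86 groups of libraries, 1 library lay far from the others of its class by a gap rule with a nominal rate of 1 in 20. The groups include MYH4, which set the classes, MYH3, named with its values known, and genes picked by their p between the classes. The 7 are therefore a description, and no comparison with chance is drawn. In the MYH4-low class, MYH3 in restricted 6 was at 72.26 CPM with the next library at 8.14, and MYOG in the same library was the lowest, at 21.96 CPM with the next at 36.19. MYH4 itself was at 30.59 CPM in control 5 with the next low library at 24.3, and MYH2 was at 23760.18 CPM in restricted 3 with the next at 16340.96. In the MYH4-high class, control 2 was the highest for MYH15, at 1.74 CPM with the next at 0.5, and for ISOC1, at 5.16 CPM with the next at 4.57. GRSF1 in restricted 2 was the lowest, at 57.39 CPM with the next at 66.22. What sets these libraries apart was not tested.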

How the results depend on the processing

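The number of genes past the threshold was 0 under relative log expression scaling, library size scaling, scaling without the heavy chains, a filter on diet groups, all libraries under 200 CPM as the low class, and MYH4 as a continuous term. It was 1 with no covariate, 1 with no filter, 1 with the last title letter as a second covariate (CBFA2T3, log2 1.03), 1 in limma voom and 9 in DESeq2. It was 5 among titles starting with Y, 6 among titles ending in A (1 high against 7 low) and 93 among titles ending in B (4 high against 1 low, restricted 7), 89 of them lower; in the last 2 the lone library is assumed to vary like the others. It was 2 without the 3 libraries highest for interferon genes, and 0 to 2 leaving out each library in turn. The unnamed ENSBTAG00000007820 was the gene called with no covariate and with no filter, and it was among the 9 called in DESeq2. MYH3 was the gene called in limma voom and in edgeR without restricted 6, and it was also called among titles ending in B. Restricted 6 was the only MYH4-low library with MYH3 in its upper range, so leaving it out removed the contrary value. In the main fit MYH3 did not pass (adjusted p = 0.522, edgeR quasi-likelihood test). Its log2 difference was 1.89 to 3.36 over all alternatives. Since MYH3 was named with its values known, these are descriptions. Replicate numbers follow accession order, so no paired analysis was possible because the labels pair no animals.

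Of the log2 differences of named genes, 1022 kept direction and side of the threshold, 56 changed sign and 14 gained a call, 3 of them those of MYH3; of list medians, 654 stayed within the spread and 18 did not. With the last letter as covariate the reversed differences were MYLPF 0.016, DES 0.038, NFIX 0.062, ALDOA 0.034, GAPDH 0.009, MAF -0.045 and SOX6 0.111, and list medians moved to -0.381 for macrophage and -0.671 for lymphocyte markers. Among titles starting with Y they were MYH7B 0.01, MYLPF 0.028, SOX6 0.122 and PAX7 0.258, with lymphocyte markers at -0.373. Among titles ending in B they were MYH7 0.009, MYH7B 0.274, DES 0.358, KLHL41 0.067, NFIX 0.079, ALDOA 0.01, GAPDH 0.008 and PAX7 0.027. In that subset medians were 0.605 for spindle, -1.104 for adipocyte, -0.261 for matrix, -0.412 for tendon, -0.596 for macrophage, -0.697 for lymphocyte and -3.493 for interferon genes.

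Among titles ending in A the reversed differences were SPP1 -2.169, MYLPF 0.122, NFIX 0.068, ALDOA 0.077, GAPDH 0.037, MAF -0.147, MAFA -0.107, SOX6 0.31, MYOD1 -0.277, PAX7 0.018 and MSTN 0.402. In that subset medians were 0.133 for fast fibre, -0.076 for satellite cell, -0.171 for endothelial, -0.882 for lymphocyte, -1.062 for nerve, 1.127 for interferon and -0.586 for immediate early genes. Library size scaling gave MYH7B 0.009 and SOX6 0.017, and control 1 counted as low gave SOX6 0.003. Without the 3 interferon-high libraries MYH1 was -0.011 and PVALB 0.048, and the lymphocyte median 0.476.

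Leaving out each library in turn, the ranges of differences that changed sign were -0.015 to 0.083 for MYH1, -0.206 to 0.056 for MYH7B, -0.115 to 0.03 for MYLPF, -0.283 to 0.017 for MYL2, -0.035 to 0.122 for MAF, -0.103 to 0.076 for SOX6, -0.41 to 0.108 for PAX7 and -0.021 to 0.086 for ACTN3. The class difference in total counts ran from -165775 to 362048 and that in the other heavy chain share from -0.212 to 0.0828 percentage points, neither past the exact test. The causes were not tested. Depth limits MYH15, MYL4, MYMK and MYMX, which could not be tested.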
